A study of Mus musculus with 4 samples.

Results

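Progression from G1 into S phase was examined through 10 genes: the D cyclins Ccnd1, Ccnd2 and Ccnd3 with their kinases Cdk4 and Cdk6, the E cyclins Ccne1 and Ccne2 with their kinase Cdk2, and the pocket proteins Rb1 and Rbl1. They were taken by gene symbol from the 18436 genes listed in the expression table, and all 10 were found. D cyclins are made in response to mitogens and Wnt signals and bind Cdk4 or Cdk6. The resulting kinase phosphorylates the retinoblastoma family, which otherwise holds E2F transcription factors in check. E2F then drives Ccne1 and Ccne2, and Cdk2 bound to cyclin E completes the phosphorylation. The intestinal crypt is among the fastest cycling tissues of the mouse, and its Lgr5+ stem cells divide about daily.

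RNA-seq was performed on Lgr5-GFP high intestinal cells of 2 Lgr5-WT and 2 Lgr5-CREPTKO mice, all on a C57BL/6 background and, by the study's methods, 6 to 8 weeks old and of either sex. All 4 mice carried the Lgr5-EGFP-IRES-creERT2 allele, which makes GFP and a tamoxifen-dependent Cre recombinase in Lgr5+ cells, and Lgr5-CREPTKO mice were in addition CREPT fl/fl. Every mouse, Lgr5-WT included, was given tamoxifen at 1 mg daily over 5 days, and its cells were sorted on day 7. The allele is mosaic and leaves some crypts with neither GFP nor Cre. Whether mice shared a litter or a preparation is not given. The p-values of limma's moderated test rest on the spread between these mice, drawn for each gene toward that of other genes.

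Values are FPKM, which divides the fragments of a gene by its length and by the mapped fragments of its library, so that levels of different genes can be set side by side. FPKM values summed to between 468830 and 499327 in the 4 libraries, and the number of reads behind them is unknown. At genes of small RNAs with few reads, FPKM values come in steps, whose size was between 0.984 and 1.03 times that of Lgr5-WT mouse 1 in the other libraries (median over 5 gene lengths). Steps of like size mean like sequencing depth. CREPT is encoded by Rprd1b, which was 17.69 and 18.09 FPKM in Lgr5-WT cells and 6.65 and 7.36 FPKM in Lgr5-CREPTKO cells. It thus stood at 39.2% of the Lgr5-WT mean (log2 fold change -1.29, adjusted p = 0.0280, limma's moderated test). The CREPT fl allele flanks only part of the gene for removal, and FPKM covers the whole gene. This share therefore measures neither the CREPT protein left nor the share of cells without recombination. The stem cell markers Lgr5, Ascl2, Olfm4, Smoc2, Axin2 and Slc12a2 were detected in every library. Their summed level was 5658 to 5872 FPKM in Lgr5-WT and 6137 to 6364 FPKM in Lgr5-CREPTKO cells. Most of this sum was Olfm4, at 4932 to 5351 FPKM in the 4 mice, whereas Lgr5 itself was 37.7 to 60.1 FPKM. All 6 markers were higher in both Lgr5-CREPTKO mice than in both Lgr5-WT mice, as were 25.6% of the 12621 genes tested. Of these 6, 0 passed an adjusted p of 0.05 in the same test.

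Cdk4 was the member with the highest level and the one member that changed past the test. The 250 bases upstream of its start in the RefSeq promoter table are shown because no other member's window held so many matches to the E-box CACGTG, the site bound by Myc and related factors. The windows of Cdk6, with 1 such match, and of Rbl1, with 1 match to an E2F site, are shown for comparison. The start that the table gives for Cdk6 lies downstream of the first base of the annotated gene, so its window is within the gene's interval. Sequences are those of RefSeq on GRCm38.p6, read 5′ to 3′ on the strand of the gene, with matches in capitals on either strand.
Cdk4, chr10:127063285-127063534, plus strand: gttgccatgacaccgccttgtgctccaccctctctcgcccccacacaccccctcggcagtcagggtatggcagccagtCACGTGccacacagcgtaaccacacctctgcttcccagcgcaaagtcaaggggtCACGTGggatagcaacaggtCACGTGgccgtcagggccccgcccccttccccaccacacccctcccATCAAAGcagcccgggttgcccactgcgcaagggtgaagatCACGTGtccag
Cdk6, chr5:3343643-3343892, plus strand: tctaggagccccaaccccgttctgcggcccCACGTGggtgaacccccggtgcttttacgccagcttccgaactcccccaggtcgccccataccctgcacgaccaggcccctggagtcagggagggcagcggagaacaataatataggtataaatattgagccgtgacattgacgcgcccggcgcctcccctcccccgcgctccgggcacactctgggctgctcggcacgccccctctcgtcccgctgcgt
Rbl1, chr2:157204535-157204784, minus strand: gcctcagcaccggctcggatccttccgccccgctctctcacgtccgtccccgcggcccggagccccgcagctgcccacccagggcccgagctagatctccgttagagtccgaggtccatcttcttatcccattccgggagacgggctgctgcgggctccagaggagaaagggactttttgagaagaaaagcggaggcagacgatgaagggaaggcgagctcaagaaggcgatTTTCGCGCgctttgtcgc

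The Cdk4 window held 4 E-boxes, beginning 172, 118, 98 and 11 bases before the start, and 1 match to the TCF motif (CTTTGAT or CTTTGAA), shown in capitals as its reverse complement 52 bases before the start. Of 32851 windows of the same length in the RefSeq promoter table, 6.02% held CACGTG at least once and 7 (0.0213%) held it at least 4 times. The E2F motif was searched as TTTGGCGC, TTTCGCGC, TTTCCCGC or TTTGCCGC, and 1.86% of windows held a match. Among the 6 members in the table, Rbl1 had a match 18 bases and Cdk2 a match 140 bases before the start. The TCF motif was in 7.48% of windows. Ccne1 and both windows of Ccnd3 held none of these letters. Ccnd1, Ccnd2, Ccne2 and Rb1 have no window in the table. A match is a description of the sequence and does not show that a factor binds there.

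The levels of the 10 members in each mouse spanned from 5 FPKM for Ccne2 to 292.5 FPKM for Cdk4. In Lgr5-WT cells the order of the means was Cdk4, Ccnd2, Ccnd1, Cdk2, Ccnd3, Cdk6, Rbl1, Ccne1, Ccne2 and Rb1. Ccnd3 and Cdk6 overlapped between mice, as did Ccne1 with Ccne2 and Ccne2 with Rb1, and their order is not resolved. In Lgr5-CREPTKO cells Ccnd1 stood above Ccnd2, at 90.5 against 70.7 FPKM, and the mice did not overlap. Cdk6 moved next to Cdk2 there, with values that overlapped.

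**Figure D1:**
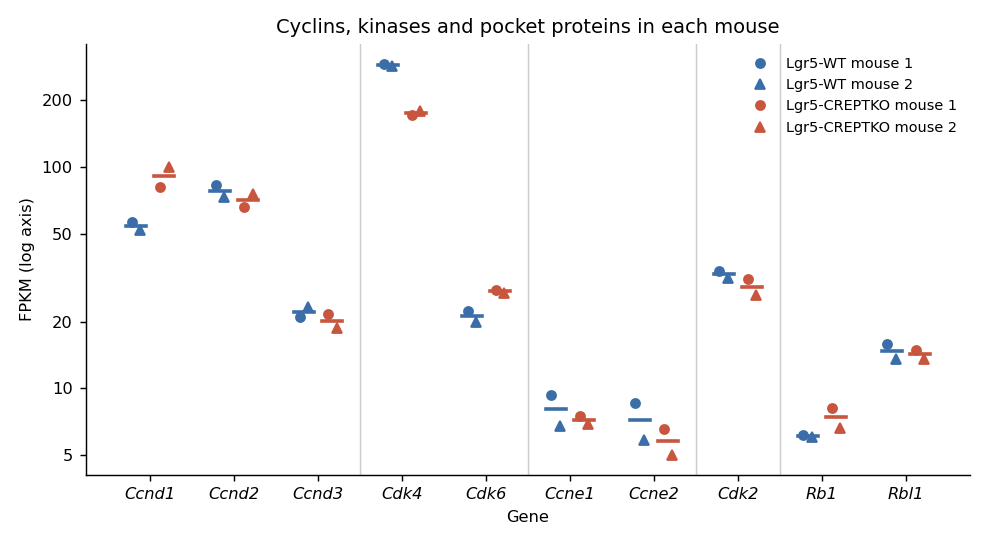
FPKM of the 10 genes in each mouse on a log axis, with Lgr5-WT in blue, Lgr5-CREPTKO in red, circles for mouse 1, triangles for mouse 2 and bars for the mean of 2 mice. Cdk4 lies at 292.5 and 286.56 FPKM in Lgr5-WT and at 171.45 and 178.24 FPKM in Lgr5-CREPTKO cells, and Ccnd1 is higher in both Lgr5-CREPTKO mice.

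The genotypes were compared gene by gene as log2(FPKM + 0.5) by limma's moderated test, for the 12621 genes whose average was 0.5 FPKM or more, with p-values adjusted over all of these. All 10 members passed this filter. At an adjusted p below 0.05, 1 of the 10 was lower and 0 were higher in Lgr5-CREPTKO cells, where 2.67% of all genes tested were lower and 0.412% were higher. At an unadjusted p below 0.05, 3 of the 10 passed (Cdk4, Ccnd1 and Cdk6), against 24.5% of all genes tested, which is near the same share. Of the 10, 0 also met the study's further limit of an absolute log2 fold change above 1. Both Lgr5-CREPTKO values lay below both Lgr5-WT values in 2 members (Cdk4 and Cdk2) and above them in 3 (Ccnd1, Cdk6 and Rb1), against 31.0% and 25.6% of all genes tested. The median log2 fold change was -0.14 over the members and -0.01 over all genes tested.

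**Figure D2:**
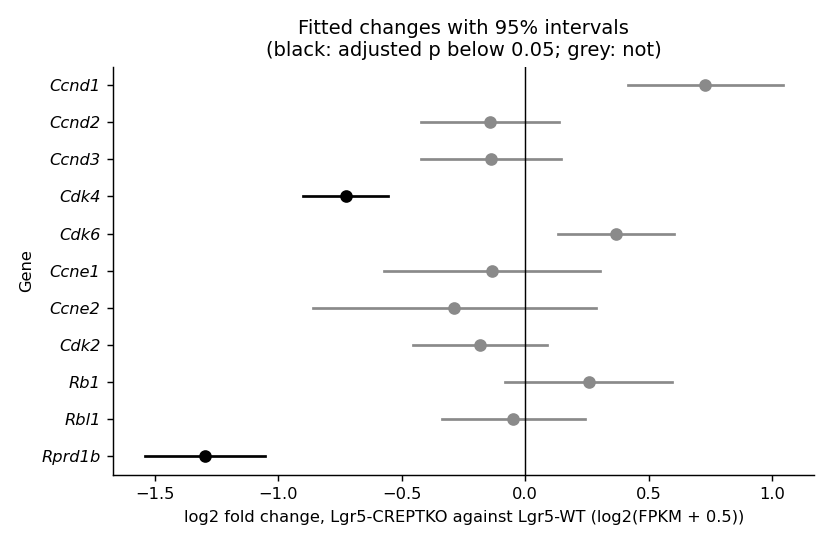
Fitted log2 fold change of each member and of the targeted gene Rprd1b on the log2(FPKM + 0.5) scale, with points for the estimate and lines for its 95% interval from limma. Cdk4 and Rprd1b, in black, have an adjusted p below 0.05, and the intervals of Ccnd1 and Cdk6 lie above 0 although their adjusted p does not pass.

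Of the kinases that bind D cyclins, Cdk4, on chromosome 10 from 127063535 to 127067288 (plus strand), was 292.5 and 286.56 FPKM in Lgr5-WT cells and 171.45 and 178.24 FPKM in Lgr5-CREPTKO cells. Both Lgr5-CREPTKO mice were far below both Lgr5-WT mice, and the mice of each genotype differed by only a few FPKM. Cdk4 fell from 289.5 ± 4.2002 to 174.8 ± 4.80 FPKM (SD, n = 2 mice each), to 60.4% of the Lgr5-WT mean. Its log2 fold change was -0.73 (standard error 0.0667, 95% interval -0.90 to -0.55, adjusted p = 0.0298, limma's moderated test). In a sorted bulk sample, fewer cells of a type and less RNA per cell cannot be told apart. Cdk4 is in the study's heatmap of cell cycle genes from these same mice, so its direction is not independent of that choice. The adjusted p was 0.116 without the filter on low values, 0.0657 without limma's intensity trend, and between 0.123 and 0.295 with any 1 mouse left out, where 0 genes in all passed. Over all 14 alternatives the log2 fold change stayed between -0.75 and -0.63.

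Cdk4 meets Tspan31 at its 3′ end, and 17.01% of the 50-base words of its GENCODE transcripts also occur in Tspan31 transcripts on either strand. Tspan31 was 50 and 53.33 FPKM in Lgr5-WT and 45.24 and 46.48 FPKM in Lgr5-CREPTKO cells, with adjusted p = 0.235 by limma's moderated test for a log2 fold change of -0.17. Its level was thus well under that of Cdk4, and its difference was smaller. Whether shared reads contributed to the Cdk4 value was not tested.

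Cdk6, the paralog that binds the same cyclins, lies on chromosome 5 from 3341004 to 3531008 (plus strand). It was 22.5 and 19.9 FPKM in Lgr5-WT cells and 27.8 and 27.0 FPKM in Lgr5-CREPTKO cells. The genotypes did not overlap, and the Lgr5-CREPTKO mean was 130% of the Lgr5-WT mean. The log2 fold change was 0.37 (95% interval 0.13 to 0.60, adjusted p = 0.0967, limma's moderated test), which does not pass over all genes, with adjusted p between 0.0773 and 0.340 over the alternatives. Cdk6 was below Cdk4 in every mouse. The ratio of Cdk4 to Cdk6 FPKM was 13.0 and 14.4 in Lgr5-WT mice and 6.16 and 6.59 in Lgr5-CREPTKO mice. An exact two-sided permutation test of this ratio gave p = 0.333, the smallest p that 2 mice against 2 allow. The summed FPKM of both kinases was 315.0 and 306.4 in Lgr5-WT and 199.3 and 205.3 in Lgr5-CREPTKO mice, so the difference of Cdk6 in FPKM was small beside the fall of Cdk4.

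Among the D cyclins, Ccnd1, on chromosome 7 from 144929931 to 144939831 (minus strand), encodes cyclin D1, a textbook Wnt target. The study cites reports that loss of APC in the intestine did not change cyclin D1 expression at once. Ccnd1 was 56.3 and 52.0 FPKM in Lgr5-WT cells and 80.8 and 100.2 FPKM in Lgr5-CREPTKO cells. Both Lgr5-CREPTKO values were above both Lgr5-WT values, and the Lgr5-CREPTKO mice differed from each other more than the Lgr5-WT mice did. The mean was 54.2 ± 2.998 FPKM in Lgr5-WT and 90.5 ± 13.7 FPKM in Lgr5-CREPTKO cells (SD, n = 2 mice each). The log2 fold change was 0.73 (standard error 0.122, 95% interval 0.41 to 1.04), with an adjusted p of 0.0553 from limma's moderated test, just over the threshold. It passed under 4 of the 14 alternatives, with adjusted p of 0.0389 when genes of small RNAs were left out, 0.0464 with median ratio scaling, 0.0475 with quantile normalization and 0.0498 with a minimum mean of 1 FPKM. With any 1 mouse left out, it was between 0.158 and 0.319. Of its 50-base words, 21.6% occur in transcripts of the neighbouring gene Oraov1 (LTO1), which was 9.60 and 11.2 FPKM in Lgr5-WT and 8.58 and 8.72 FPKM in Lgr5-CREPTKO cells. The log2 fold change of Oraov1 was -0.25 (adjusted p = 0.249, limma's moderated test). Whether shared reads contributed to the Ccnd1 value was not tested.

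Ccnd2, on chromosome 6 from 127125162 to 127152188 (minus strand), was 83.2 and 72.9 FPKM in Lgr5-WT cells and 65.7 and 75.7 FPKM in Lgr5-CREPTKO cells. Ccnd3, on chromosome 17 from 47505051 to 47599689 (plus strand), was 21.0 and 23.4 FPKM in Lgr5-WT and 21.6 and 18.7 FPKM in Lgr5-CREPTKO cells. The genotypes overlapped in both genes. Their log2 fold changes were -0.14 (95% interval -0.42 to 0.14) and -0.14 (95% interval -0.42 to 0.14), with adjusted p of 0.469 and 0.487 from limma's moderated test. As folds, the lower ends of these intervals are 0.747 times the Lgr5-WT level for Ccnd2 and 0.748 times for Ccnd3.

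Ccnd1 took a larger share of the D cyclins in both Lgr5-CREPTKO mice, and Ccnd2 a smaller one. Ccnd1 made up 35.1% of the summed D cyclin FPKM in each Lgr5-WT mouse, and 48.1% and 51.5% in the Lgr5-CREPTKO mice. Ccnd2 made up 51.8% and 49.1% in Lgr5-WT mice, and 39.1% and 38.9% in Lgr5-CREPTKO mice. Ccnd3 was the smallest part throughout, between 9.60% and 15.8%. The summed level was 160.4 and 148.3 FPKM in Lgr5-WT mice and 168.1 and 194.5 FPKM in Lgr5-CREPTKO mice, with no overlap (exact two-sided permutation p = 0.333, the smallest possible). Per length of transcript, Cdk4 exceeded all D cyclins together 1.82 and 1.93 times in Lgr5-WT mice, and the same ratio was 1.02 and 0.916 in Lgr5-CREPTKO mice.

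**Figure D3:**
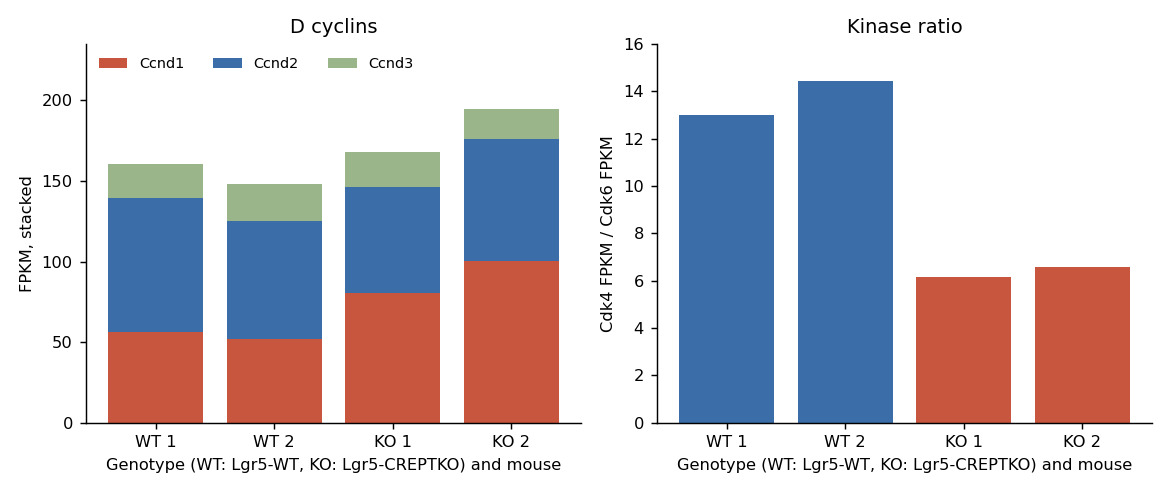
Left, FPKM of Ccnd1, Ccnd2 and Ccnd3 stacked for each mouse, and right, the ratio of Cdk4 to Cdk6 FPKM in each mouse, with both axes starting at 0. Ccnd1 makes up 35.1% of the stack in both Lgr5-WT mice and 48.1% and 51.5% in the Lgr5-CREPTKO mice, and the ratio lies above 13 in Lgr5-WT and below 7 in Lgr5-CREPTKO mice.

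The E cyclins and their kinase gave no call. Ccne1, on chromosome 7 from 38097984 to 38107490 (minus strand), was 9.32 and 6.76 FPKM in Lgr5-WT cells and 7.48 and 6.90 FPKM in Lgr5-CREPTKO cells. Ccne2, on chromosome 4 from 11190433 to 11204779 (plus strand), was 8.60 and 5.86 FPKM in Lgr5-WT and 6.57 and 5 FPKM in Lgr5-CREPTKO cells. Lgr5-WT mouse 1 was the highest of the 4 in both genes, and the genotypes overlapped. The log2 fold changes were -0.14 (95% interval -0.57 to 0.30, adjusted p = 0.673) and -0.29 (95% interval -0.86 to 0.29, adjusted p = 0.477, limma's moderated test). Without Lgr5-WT mouse 1 the value of Ccne1 was 0.082 and that of Ccne2 was -0.028, and without Lgr5-WT mouse 2 Ccne2 was at -0.55. Of the words of Ccne2, 14.4% occur in transcripts of Ints8, which overlaps it. Ints8 was 17.4 to 20.1 FPKM in the 4 mice, above Ccne2 itself. Whether shared reads contributed to the Ccne2 value was not tested, so its level is uncertain. The summed E cyclins were 17.9 and 12.6 FPKM in Lgr5-WT and 14.05 and 11.9 FPKM in Lgr5-CREPTKO mice, which overlapped.

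Cdk2, the kinase of the E cyclins, lies on chromosome 10 from 128697938 to 128705051 (minus strand). It was 33.73 and 31.65 FPKM in Lgr5-WT cells and 31.2 and 26.4 FPKM in Lgr5-CREPTKO cells. The genotypes did not overlap, but the gap between them was smaller than the gap between the mice of either genotype. The log2 fold change was -0.18 (95% interval -0.45 to 0.09, adjusted p = 0.352, limma's moderated test). It was -0.30 without Lgr5-CREPTKO mouse 1 and -0.066 without Lgr5-CREPTKO mouse 2.

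Of the pocket proteins, Rb1, the retinoblastoma gene, lies on chromosome 14 from 73192858 to 73325951 (minus strand) and was 6.16 and 6.01 FPKM in Lgr5-WT cells and 8.17 and 6.65 FPKM in Lgr5-CREPTKO cells. Its values did not overlap, and the log2 fold change was 0.26 (95% interval -0.08 to 0.60, adjusted p = 0.300, limma's moderated test). It was 0.12 without Lgr5-CREPTKO mouse 1 and 0.40 without Lgr5-CREPTKO mouse 2. Of its words, 11.96% occur in transcripts of Rcbtb2, at 7.17 to 8.85 FPKM, or of Lpar6, at 7.05 to 9.72 FPKM in the 4 mice. Both overlap Rb1 on the other strand at like levels. Whether shared reads contributed to the Rb1 value was not tested, so its level is uncertain. Rbl1, which encodes p107, lies on chromosome 2 from 157145893 to 157204534 (minus strand). The targeted Rprd1b is near it on the same chromosome, from 158028475 to 158078207. Any effect on Rbl1 of DNA linked to the CREPT fl allele was not tested. Rbl1 was 15.9 and 13.6 FPKM in Lgr5-WT and 14.9 and 13.6 FPKM in Lgr5-CREPTKO cells, which overlapped. Its log2 fold change was -0.05 (95% interval -0.34 to 0.24, adjusted p = 0.838) and turned positive, 0.029, on the TPM scale, so that no direction is given. Rbl2, the third pocket protein and no member of the 10, averaged 11.3 FPKM in Lgr5-WT and 12.65 FPKM in Lgr5-CREPTKO cells (adjusted p = 0.422). Rb1 made up 18.8% and 19.0% of the summed pocket protein FPKM in Lgr5-WT mice and 22.4% and 20.6% in Lgr5-CREPTKO mice.

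The rest of the pathway was described through 7 further lists, of which 93 genes were in the table and 91 passed the filter. Of these 91, 0 were lower and 1 was higher at an adjusted p below 0.05, against 2.67% and 0.412% of all genes tested. At an unadjusted p below 0.05 in the same limma fit, 14 were lower and 4 higher, against 15.2% lower and 9.27% higher of all genes tested. The share lower was near that background and the share higher was under it. The 1 gene was Ccng1, which encodes cyclin G1. Ccng1 was 34.41 and 34.05 FPKM in Lgr5-WT and 60.7 and 53.1 FPKM in Lgr5-CREPTKO cells, with no overlap. It rose by 0.72 on the log2 scale (standard error 0.0896), with an adjusted p of 0.0373 from limma's moderated test. For Ccng1 this was 0.123 without the filter on low values, 0.0764 without the intensity trend and between 0.123 and 0.295 with any 1 mouse left out.

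The Cdk inhibitors, which restrain the kinases above, had 6 genes tested and 0 called, with a median log2 fold change of -0.22. Cdkn1c, which encodes p57, had the largest difference, with 3.07 and 4.36 FPKM in Lgr5-WT and 1.42 and 1.54 FPKM in Lgr5-CREPTKO cells (log2 fold change -1.07, adjusted p = 0.0638). Cdkn1c and Cdkn2d are in the study's heatmap from the same mice, so their direction is not independent of that choice. Cdkn1b, which encodes p27, was the most abundant, at 35.6 FPKM in Lgr5-WT and 33.2 FPKM in Lgr5-CREPTKO cells on average (adjusted p = 0.670). Of the 11 genes of Rbl2 and the E2F factors with their partners, 0 were called, and the log2 fold changes lay between -0.25 (E2f5) and 0.16 (Rbl2).

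Other G1/S regulators, 15 genes tested, also gave 0 calls. The largest difference was that of Cks1b, a cofactor of the SCF ubiquitin ligase that removes p27, with 27.3 and 29.9 FPKM in Lgr5-WT and 22.9 and 21.6 FPKM in Lgr5-CREPTKO cells (log2 fold change -0.35, adjusted p = 0.0935). Cdc37, the co-chaperone that folds Cdk4, was 85.4 and 86.0 FPKM in Lgr5-WT and 64.8 and 69.7 FPKM in Lgr5-CREPTKO cells (adjusted p = 0.0721). Myc, which encodes a factor that binds E-boxes, was 74.7 and 91.0 FPKM in Lgr5-WT and 101.6 and 109.4 FPKM in Lgr5-CREPTKO cells (log2 fold change 0.35, adjusted p = 0.151). Cdc37 and Myc are named beside Cdk4 for their known roles and after their values were seen. The groups did not overlap in any of these 3 genes. Of the 15, 5 were lower and 5 higher in both Lgr5-CREPTKO mice, against 31.0% and 25.6% of all genes tested.

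Genes that E2F drives in S phase, 24 tested, had 0 calls in either direction and a median log2 fold change of 0.05, with 8 values below 0 and 16 above. The largest difference was that of Tyms, thymidylate synthase, with 24.45 and 24.25 FPKM in Lgr5-WT and 15.7 and 12.2 FPKM in Lgr5-CREPTKO cells (log2 fold change -0.79, adjusted p = 0.0560). Tyms, Tk1, Prim1 and Gins2 of this list are in the study's heatmap from the same mice and had log2 fold changes between -0.79 and -0.38. The Mcm2 to Mcm7 genes, which encode the replicative helicase, had values between 0.04 and 0.19, and 4 of these 6 turned negative without Lgr5-WT mouse 2. The 6 DREAM and MuvB genes had 0 calls, and the largest difference was -0.35 (Lin37, adjusted p = 0.0959, limma's moderated test). Of the other cyclins, 16 were tested with a median of -0.05. Of the other cyclin-dependent kinases, 13 were tested with a median of 0.01 and 0 calls. Cdk5, best known from neurons and also in the heatmap, had the largest difference, with 13.35 and 12.47 FPKM in Lgr5-WT and 5.82 and 7.90 FPKM in Lgr5-CREPTKO cells (log2 fold change -0.88, adjusted p = 0.0608).

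**Figure D4:**
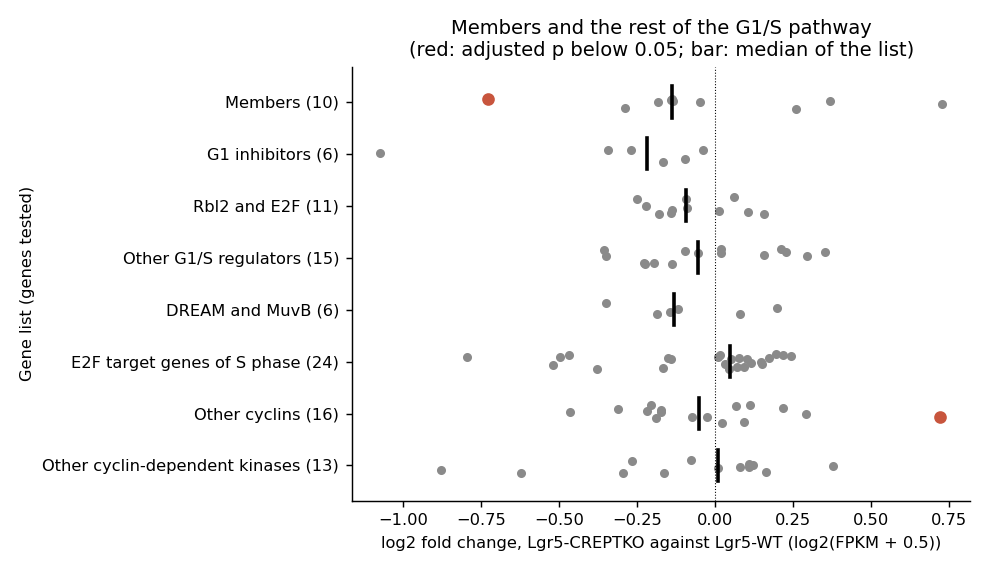
Log2 fold change on the log2(FPKM + 0.5) scale of each gene tested in the 10 members and 7 pathway lists, 1 point per gene, red where the adjusted p is below 0.05, with a bar at the median of each list. Only Cdk4 and Ccng1 are red, on opposite sides of 0, and the medians lie between -0.22 and 0.05.

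Of the markers of other cells that the gate could hold, those of enteroendocrine cells gave calls in most genes. For comparison, 31.0% of all genes tested were lower and 25.6% higher in both Lgr5-CREPTKO mice. Calls were made for 2.67% lower and 0.412% higher. Goblet markers summed to 1336 and 2154 FPKM in Lgr5-WT and 742 and 771 FPKM in Lgr5-CREPTKO mice, with 6 of 6 genes lower in both Lgr5-CREPTKO mice and 1 called. Enteroendocrine markers summed to 153 and 166 FPKM and to 40.5 and 57.0 FPKM, again with 6 of 6 lower and 5 called. Tuft markers, 5 genes, summed to 14.1 and 34.4 FPKM and to 11.5 and 3.87 FPKM, with 5 of 5 lower in both Lgr5-CREPTKO mice and 0 of the 4 tested called. Paneth markers, between 808 and 2393 FPKM, and enterocyte markers, between 349 and 505 FPKM, overlapped between the genotypes in their sums, with 0 genes called. The summed cycling cell markers were 267 and 256 FPKM in Lgr5-WT and 270 and 229 FPKM in Lgr5-CREPTKO mice, which overlapped. Of these 6 genes, 3 (Ccnb1, Cdk1 and Birc5) were lower and 1 (Mki67) was higher in both Lgr5-CREPTKO mice, with 0 called. Immune markers were between 284 and 1172 FPKM, nearly all of it Cd74, with 0 called, and Ptprc, the marker of all leukocytes, was at most 1.35 FPKM. Stromal and endothelial markers summed to at most 0.35 FPKM, and no marker was at 0 in all 4 mice. The part of the goblet, enteroendocrine and tuft cells in the differences of Cdk4, Ccnd1 and Cdk6 was not tested.

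The genes whose 4 values lay nearest to those of Cdk4, after each was set relative to its Lgr5-WT mean on the log2 scale, were Abhd11, Ocel1, 1700102P08Rik, Ceacam18 and Fam206a, at Euclidean distances of 0.0378 to 0.0554 over the 4 mice. Abhd11, the nearest, was 105.0 and 104.0 FPKM in Lgr5-WT and 60.6 and 63.1 FPKM in Lgr5-CREPTKO cells. This is a description over 4 mice, in which any gene with a like fold change and small spread comes out near.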

How the data were processed

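RNA of sorted Lgr5-GFP high cells from 2 Lgr5-WT and 2 Lgr5-CREPTKO mice was analysed, grouped by the sample titles, which match the column names. The authors deposited 1 table of FPKM values. The study's methods name Bowtie2, run against the transcripts of GRCm38.p6, then RSEM for quantification, and the submitters' processing notes also name HISAT and mm10, without versions. FPKM is relative to each library and holds no counts, so the study's count model was not run and a level can move when other genes do. A symbol occurred again in 2 rows, kept as separate genes.

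Genes averaging 0.5 FPKM or more were fitted as log2(FPKM + 0.5) with limma 3.58.1 in R 4.3.3 (lmFit and eBayes with trend), with no covariate and Benjamini-Hochberg adjustment over 12621 genes. This scale understates the change of low genes. Sums and ratios were compared by exact permutation over mice with scipy 1.17.1. Coordinates and promoters are those of RefSeq, strands and transcripts those of GENCODE M21, both GRCm38. Shared words were counted in the GENCODE transcripts, whereas the study names an NCBI reference, in which the shared part may differ. Motifs were searched in the 250 bases before the start, leaving out the last 50 bases of each entry.

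On data simulated for 2 mice against 2 (12602 genes run), 178 of 200 genes given a log2 difference of 1 were recovered with 4 false calls. At 0.7, 66 of 200 were recovered (33.0%, 12609 genes run). The simulation assumed a read depth and the same relative spread between mice for every gene, neither estimated from these data. Changed genes were not drawn from the lowest levels. These shares therefore need not hold for the measured genes. The members and lists were chosen with earlier results of these data known. Named are all members, the called genes or, where a list has none, the gene with the largest difference, and the 5 genes nearest to Cdk4. Cdkn1b, Cdc37, Myc, Tk1, Prim1, Gins2, Mcm2 to Mcm7 and the overlapping genes were named after their values were seen.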

Additional observations from a re-analysis of the deposited data

How the results depend on the processing

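Pseudocount, filter, scaling, intensity trend, small RNA genes, replicate block and each of the 4 mice were varied, 14 alternatives in all. Of 140 values for the 10 members, 126 kept their direction and their side of the threshold. The log2 fold change of Cdk4 was -0.73 but no longer passed without the filter on low values or without the intensity trend, which left 0 members lower in each. With each mouse left out it was between -0.75 and -0.70, with 0 members lower, 0 genes lower and 0 higher by limma in all 4 fits, where 1170 to 1615 genes were lower and 633 to 954 higher without adjustment (p below 0.05). Rprd1b and Ccng1 lost their calls in the same 6 fits. Of the pathway genes named without a call, Tyms, Tk1, Cdkn1c and Cdk5 passed with small RNA genes left out, and Tyms also with a minimum mean of 1 FPKM. Ccnd1 passed in 4 alternatives (minimum mean of 1 FPKM, median ratio scaling, quantile normalization, small RNA genes left out), which gives 1 member higher in each. Ccne1 turned to 0.082 without Lgr5-WT mouse 1 (-0.35 to 0.082 over the mice left out), and the log2 ratio of the summed E cyclins to 0.040 (-0.47 to 0.040). Rbl1 turned to 0.029 on the TPM scale, 0.060 without Lgr5-WT mouse 1 and 0.019 without Lgr5-CREPTKO mouse 2 (-0.16 to 0.060). Without Lgr5-WT mouse 2, Cdkn1b turned to 0.031, Mcm2 to -0.035, Mcm4 to -0.047, Mcm5 to -0.036 and Mcm7 to -0.021. Over the mice left out these ranged from -0.23 to 0.031 (Cdkn1b), -0.035 to 0.19 (Mcm2), -0.047 to 0.14 (Mcm4), -0.036 to 0.24 (Mcm5) and -0.021 to 0.21 (Mcm7). Likewise Ccnd2 was between -0.24 and -0.041, Ccnd3 between -0.24 and -0.036, Ccne2 between -0.55 and -0.028, Cdk2 between -0.30 and -0.066, and Rb1 between 0.12 and 0.40.

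Over all genes, 337 were lower and 52 higher. Without the filter on low values 0 were lower and 0 higher by limma's moderated test, against 2250 and 1320 with no adjustment (p below 0.05). The TPM scale gave 166 lower, no intensity trend 4 lower and 0 higher, and leaving out small RNA genes 508 lower and 115 higher. The cause was not tested. Same-numbered mice are different animals, and their deviations had a correlation of -0.03 over 12621 genes. A value over all genes cannot show whether same-numbered mice shared a preparation that acted on some genes. With the replicate block 168 genes were lower and 15 higher, Cdk4 stayed called at -0.73 (adjusted p = 0.0412), and no member changed its call. Read depth is unknown, and 2 mice a genotype limit the precision of every value.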
